A study of Homo sapiens with 12 samples.

Results

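The KEAP1-CUL3-NRF2 axis and its antioxidant targets are described here through 10 genes, found by symbol among the 28278 genes of the count table. NFE2L2, KEAP1 and CUL3 form the axis, and NQO1, HMOX1, GCLC, GCLM, TXNRD1, SRXN1 and OSGIN1 are 7 of its targets. All 10 passed the filter on low counts in both cell lines. RNA was measured by polyA RNA-seq in OVCAR3, labelled as an ovarian cancer line, and CCL218, a colorectal cancer line, each either control or HCQ-evolved. HCQ-evolved cells had received 15 pulses of hydroxychloroquine (HCQ, an antimalarial drug that disrupts autophagy) lasting 48 h each, and were harvested at passage 15 after 7 days without drug. Control cells were grown on a paired plate without HCQ and were harvested at passage 19. Wells were pooled by where they lay on the plate, as left, middle or right (pools L, M and R), which gave 3 pools in each of 4 groups and 12 libraries. All pools of a group came from 1 plate, on which each well was passaged separately. The spread between pools is thus that of different wells and libraries of 1 plate, not of repeated plates. Passage number and HCQ exposure cannot be told apart.

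NRF2, encoded by NFE2L2, is a transcription factor that is made and destroyed continuously. KEAP1 is the adaptor that holds NRF2 against the cullin scaffold CUL3, whose ligase marks NRF2 for the proteasome. Oxidants and electrophiles modify cysteines of KEAP1, and NRF2 then escapes and enters the nucleus. There it pairs with a small MAF protein and binds antioxidant response elements of genes for glutathione synthesis, thioredoxin reduction and quinone reduction. NRF2 activity is set mainly by protein stability, so the RNA of NFE2L2, KEAP1 and CUL3 is not a measure of it. The autophagy receptor SQSTM1 also binds KEAP1.

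Libraries held 31147822 to 59965861 counts, and the 10 genes had 236 to 23810 counts in a library. Pools differed along transcript length, with Spearman's rho across genes between a pool's deviation from its cell line and length from -0.505 to 0.555 and both signs in every group. Of entries of 1 to 4 counts in the table, 78.9% were even, so low entries may count both reads of a pair, and no counting interval is given. The cell line labels were checked against markers. Of 11 ovarian and Mullerian markers, SOX17, EMX2, ESR1 and CDH6 were under 1 CPM (counts scaled to a common library size) in every library. WT1 was also under 1 CPM in every control pool of either label. PAX8, MUC16, MECOM, FOLR1, WFDC2 and MSLN, 6 of the 11, reached 1 CPM in every library. Means in control OVCAR3 and control CCL218 were 23.2 and 7.69 CPM for WFDC2 and 22.4 and 8.65 CPM for MUC16. The mean of MSLN went the other way, at 14.25 and 63.6 CPM. The directions were the same in HCQ-evolved pools. Of 7 tested between control groups, 5 lay lower and 2 higher in CCL218, and only MSLN passed (adjusted p = 0.03, edgeR). PAX8, a defining gene of serous ovarian cancer, was at 7.23 to 14.9 CPM in libraries labelled OVCAR3 and at 6.40 to 11.2 CPM in those labelled CCL218. Of 11 intestinal epithelial markers, 9 were at 1 CPM or more in every control pool labelled OVCAR3, with a summed level of 1020 to 1240 CPM, against 1300 to 1770 CPM in control CCL218. In HCQ-evolved pools that sum was 276 to 729 CPM in OVCAR3 and 1330 to 1400 CPM in CCL218, where edgeR called GPA33, CEACAM5, CDH17 and CDX2 higher (adjusted p = 0.000608 to 0.00275) and LGR5 lower (adjusted p = 0.021). The LGR5 call held without the control L pool and was lost without any other single pool (adjusted p up to 0.151), and the CDX2 call was lost with all 12 libraries in one fit (adjusted p = 0.161). PTPRC, CD3E, COL3A1 and VIM were under 1 CPM throughout, and the sum over 7 markers of other cell types went from 17.6 to 22.5 CPM in control to 31.2 to 44.5 CPM in HCQ-evolved OVCAR3, and from 15.5 to 16.9 CPM to 50.9 to 55.7 CPM in CCL218, with CD68 as its largest part. Libraries under the OVCAR3 label thus carried intestinal markers beside 6 of the 11 ovarian and Mullerian markers. The line names used below are the labels. The part of these differences in the results below was not tested.

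Antioxidant response elements hold the letters TGACNNNGC, and TGACTCAGC is a common full form. These letters were searched for on both strands near the RefSeq start sites on hg38, for 9 of the 10 genes (HMOX1 was not searched). A match is a description of the letters and not a measured binding site, and TGACTCAGC is a special case of TGACNNNGC and overlaps the AP-1 letters TGACTCA. Within 5000 bases upstream of the start, TGACTCAGC was found in NQO1 and GCLC, as it was in 1817 of 27305 genes (6.65%). It lay at -455 from the start in NQO1 (chr16:69726992-69727030, minus strand) and at -3156 on the opposite strand in GCLC (chr6:53548234-53548272, minus strand). Both are shown with 15 bases on each side, in the direction of the gene, with the match in capitals, because NQO1 and GCLC had fold changes of opposite sign after HCQ evolution. These changes did not pass the test in either line, and a link between the letters and RNA was not tested.
NQO1: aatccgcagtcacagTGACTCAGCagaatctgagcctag
GCLC: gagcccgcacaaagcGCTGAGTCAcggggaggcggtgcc

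Within 300 bases around the start (250 before and 50 after), none of these 9 genes held TGACTCAGC, which 154 of 27305 windows held (0.56%). TGACNNNGC was found in GCLM (1 match) and TXNRD1 (2 matches) and in none of the other 7 genes searched, against 3702 of 27305 windows (13.56%). The 250 bases before the RefSeq start are shown for these 2 genes, since GCLM carries the clearest change in RNA among the 10 genes, with the matches in capitals. The GCLM match begins at -34 and reads on the opposite strand (chr1:93909431-93909680, minus strand), and 26 of the bases lie inside the longer GENCODE 44 gene. The TXNRD1 match begins at -99 (chr12:104215529-104215778, plus strand), and its other match lies after the start.
GCLM: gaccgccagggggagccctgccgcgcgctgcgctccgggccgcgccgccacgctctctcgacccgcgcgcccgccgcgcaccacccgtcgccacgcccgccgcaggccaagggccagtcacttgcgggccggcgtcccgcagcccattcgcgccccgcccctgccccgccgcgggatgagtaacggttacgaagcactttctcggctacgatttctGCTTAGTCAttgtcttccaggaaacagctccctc
TXNRD1: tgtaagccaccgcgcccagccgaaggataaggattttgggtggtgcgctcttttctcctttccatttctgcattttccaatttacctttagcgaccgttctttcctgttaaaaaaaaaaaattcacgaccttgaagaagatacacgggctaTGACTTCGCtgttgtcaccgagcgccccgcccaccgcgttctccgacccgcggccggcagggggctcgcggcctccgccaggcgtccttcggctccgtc

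In the test without a replicate block, GCLM was the only one of the 10 genes to pass after HCQ evolution, and it rose in OVCAR3. In these pools, more cells with a transcript and more transcript per cell cannot be told apart. No gene of the set passed in CCL218 in that test. With a replicate block, which takes CCL218 pools of the same plate position as pairs, HMOX1 passed there (adjusted p = 0.0345, edgeR). With the block 14.2% of all genes tested passed, in place of 6.46%. The 3 genes of the axis itself stayed within 0.15 of 0 on the log2 scale in both lines. The other targets had log2 fold changes from -0.31 to 0.60, with GCLC, TXNRD1 and HMOX1 above 0 and NQO1 below 0 in both lines. Genes were tested with edgeR's quasi-likelihood F test in each line alone, with Benjamini-Hochberg adjustment over all genes tested and a threshold of 0.05. In OVCAR3, 1 of 10 genes passed, where 1.86% of 12204 genes passed (0.647% higher and 1.21% lower). In CCL218, 0 of 10 passed, where 6.46% of 12241 genes passed (3.82% higher and 2.64% lower), and DESeq2 and limma voom also called 0 of 10. In each line 1 gene had an unadjusted p under 0.05, GCLM in OVCAR3 and NQO1 in CCL218. The median log2 fold change of the 7 targets was 0.38 in OVCAR3 and 0.29 in CCL218, beside 0.016 and -0.017 over all genes tested.

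**Figure D1:**
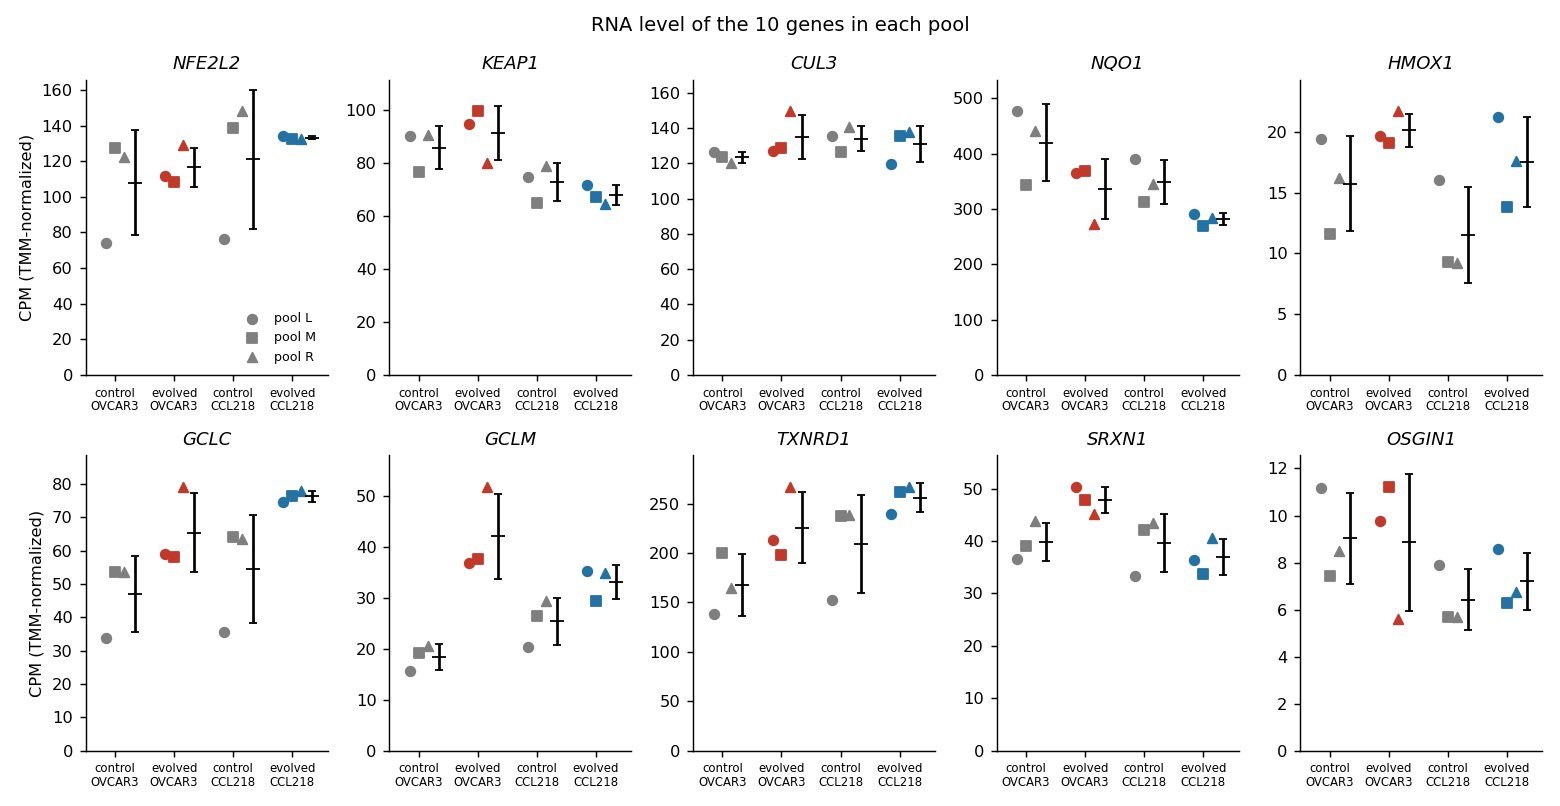
TMM-normalized CPM (linear axis from 0) of the 10 genes in each pool, with circles, squares and triangles for the L, M and R pools and a bar for the mean ± SD of 3 pools. GCLM is the gene with the widest gap in OVCAR3, with HCQ-evolved pools at 36.7 CPM or more and control pools at 20.6 CPM or less.

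**Figure D2:**
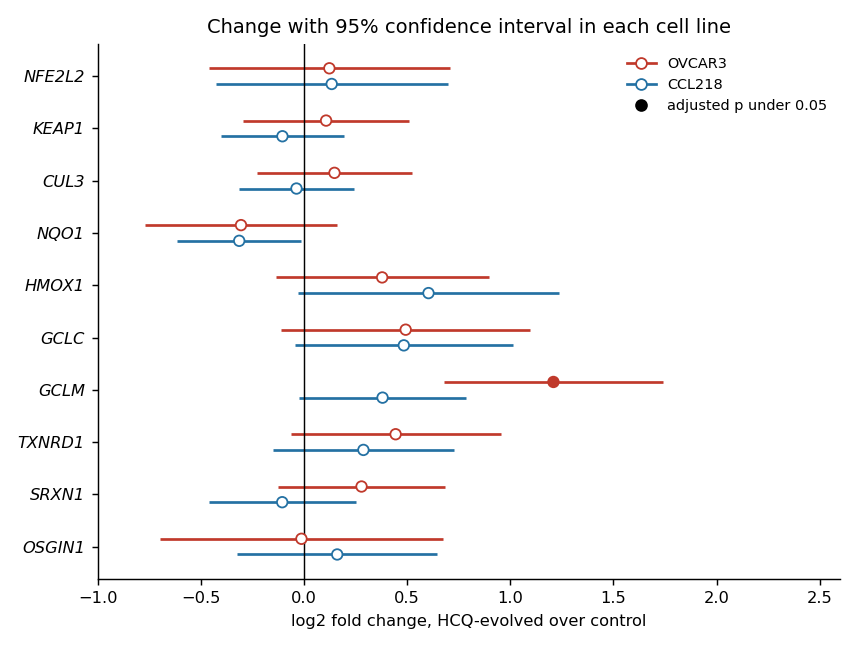
Log2 fold change of HCQ-evolved over control pools with its 95% confidence interval (edgeR, 3 against 3 pools) in OVCAR3 (red) and CCL218 (blue), with filled points for an adjusted p under 0.05. GCLM in OVCAR3 is the only filled point, and the 3 genes of the axis lie close to 0 in both lines.

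NFE2L2 (chr2:177218667-177392756 on hg38, GENCODE 44, minus strand) encodes NRF2. It was at 73.9, 128 and 122 CPM in the L, M and R control pools of OVCAR3 and at 112, 108 and 129 CPM in the HCQ-evolved pools. In CCL218 it was at 76.2, 139 and 148 CPM in control pools and at 134, 132.5 and 132.5 CPM in HCQ-evolved pools. The control L pool was the lowest in both lines, and the groups overlapped. The log2 fold change was 0.12 (SE 0.25, adjusted p = 0.859, edgeR) in OVCAR3 and 0.13 (SE 0.24, adjusted p = 0.749) in CCL218, and it turned to -0.11 and -0.12 without the control L pool of the same line. NFE2L2 shares 3509 exon bases with HNRNPA3 on the other strand, and the strand setting of the counting is not given in the sources used here, so its level is uncertain.

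KEAP1 (chr19:10486125-10503558, minus strand) is the oxidant sensor and adaptor. Control pools of OVCAR3 held 90.5, 76.7 and 90.7 CPM and HCQ-evolved pools 95, 99.7 and 80.0 CPM. Control pools of CCL218 held 74.8, 64.9 and 79.1 CPM and HCQ-evolved pools 71.9, 67.4 and 64.7 CPM. The groups overlapped in both lines, and every CCL218 value but the control R pool lay below every OVCAR3 value. KEAP1 had a log2 fold change of 0.11 (95% confidence interval -0.29 to 0.51, adjusted p = 0.809, edgeR) in OVCAR3 and -0.10 (-0.40 to 0.20, adjusted p = 0.631) in CCL218.

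CUL3 (chr2:224470150-224585397, minus strand) is the scaffold of the ligase and serves many adaptors besides KEAP1. In OVCAR3 it was at 126.5, 124 and 120.3 CPM in control and at 127, 129 and 149.5 CPM in HCQ-evolved pools. The HCQ-evolved pools all lay above the control pools, though narrowly for the nearest pair. In CCL218 the values were 135, 126.5 and 140.4 CPM in control and 119.5, 136 and 138 CPM in HCQ-evolved pools, which overlapped. CUL3 had a log2 fold change of 0.15 (-0.23 to 0.53, adjusted p = 0.706, edgeR) in OVCAR3, where it turned to -0.074 with the trend with transcript length and GC content removed, and -0.036 (-0.32 to 0.24, adjusted p = 0.867) in CCL218.

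Pools that do not overlap were common among all genes. Of the 10 genes, CUL3, GCLC, GCLM and SRXN1 had all HCQ-evolved pools above all control pools in OVCAR3, where 25.7% of genes tested had pools apart in either direction. In CCL218, GCLC and TXNRD1 lay above and NQO1 below the control pools, where 36.0% of genes tested had pools apart.

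Glutamate-cysteine ligase makes the first and rate-limiting step of glutathione synthesis, with GCLC as its catalytic subunit and GCLM as its modifier. GCLM (chr1:93885199-93909456, minus strand) was at 15.6, 19.1 and 20.6 CPM in the L, M and R control pools of OVCAR3 and at 36.7, 37.7 and 51.7 CPM in the HCQ-evolved pools. Every HCQ-evolved pool was well above every control pool, and the R pool was the highest. The means were 18.4 ± 2.57 and 42.0 ± 8.40 CPM (SD, n = 3), a log2 fold change of 1.21 (SE 0.23, 95% confidence interval 0.68 to 1.74, adjusted p = 0.0484, edgeR). The adjusted p lay just under the threshold. It was 0.0275 without the HCQ-evolved R pool, and 0.105 to 0.201 without any one of the other 5 pools, which ended the call, with log2 fold changes from 1.02 to 1.30. With a block for plate position, a pairing the OVCAR3 pools did not show, the adjusted p was 0.107. It was 0.00839 with the trend with length and GC content removed (log2 fold change 0.99), where 1045 of 12204 genes passed.

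In CCL218 GCLM was at 20.3, 26.4 and 29.4 CPM in control and at 35.2, 29.3 and 34.8 CPM in HCQ-evolved pools. The groups touched, with the HCQ-evolved M pool just below the control R pool. GCLM thus had a log2 fold change of 0.38 there (95% confidence interval -0.02 to 0.78, adjusted p = 0.219, edgeR).

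GCLC (chr6:53497341-53616970, minus strand) was at 33.8, 53.8 and 53.5 CPM in control and at 58.95, 58.3 and 79.1 CPM in HCQ-evolved OVCAR3. In CCL218 it was at 35.7, 64.0 and 63.6 CPM in control and at 74.5, 76.4 and 78.0 CPM in HCQ-evolved pools. The HCQ-evolved pools lay above the control pools in both lines, and the control L pool was by far the lowest of its group in each. The log2 fold change was 0.49 (SE 0.26, adjusted p = 0.401, edgeR) in OVCAR3 and 0.48 (SE 0.23, adjusted p = 0.232) in CCL218, so neither passed the test. The control L pools, low for NFE2L2, GCLC and TXNRD1, also had the highest rank correlations with GC content of the 12 libraries, 0.404 and 0.388. With the trend removed, the log2 fold change of GCLC was 0.43 (adjusted p = 0.165) in OVCAR3 and 0.43 (adjusted p = 0.0796) in CCL218. Without the control L pool of the same line it was 0.28 (adjusted p = 0.750) in OVCAR3 and 0.25 (adjusted p = 0.0598) in CCL218.

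The modifier was compared with the catalytic subunit as a ratio of CPM per kilobase of transcript, a measure chosen after the values were seen and given with no test. In OVCAR3 the ratio of GCLM to GCLC was 0.357, 0.275 and 0.298 in control and 0.483, 0.501 and 0.507 in HCQ-evolved pools. In CCL218 it was 0.440, 0.319 and 0.358 in control and 0.366, 0.297 and 0.346 in HCQ-evolved pools. The ratio lay higher in all HCQ-evolved pools of OVCAR3 and overlapped in CCL218.

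TXNRD1 (chr12:104215779-104350307, plus strand) is the cytosolic thioredoxin reductase. It was at 138, 200.5 and 165 CPM in control and at 213, 198 and 267 CPM in HCQ-evolved OVCAR3, where the groups overlapped by 1 pool. CCL218 pools were at 152, 237 and 238.5 CPM in control and at 239.8, 262 and 266.5 CPM in HCQ-evolved pools, which lay above the control pools by a narrow gap. TXNRD1 had log2 fold changes of 0.44 (95% confidence interval -0.07 to 0.95, adjusted p = 0.372, edgeR) in OVCAR3 and 0.29 (-0.15 to 0.73, adjusted p = 0.369) in CCL218. Without the control L pool of the same line these were 0.30 (adjusted p = 0.725) and 0.098 (adjusted p = 0.443).

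SRXN1 (chr20:646615-653200, minus strand) encodes sulfiredoxin, which restores overoxidized peroxiredoxins. Control OVCAR3 pools held 36.6, 39.1 and 43.8 CPM and HCQ-evolved pools 50.3, 47.9 and 45.3 CPM, with no overlap. Control CCL218 pools held 33.4, 42.1 and 43.5 CPM and HCQ-evolved pools 36.4, 33.8 and 40.6 CPM, which overlapped. SRXN1 had log2 fold changes of 0.28 (SE 0.17, adjusted p = 0.478, edgeR) in OVCAR3 and -0.11 (SE 0.15, adjusted p = 0.687) in CCL218. SRXN1 shares 2292 exon bases with a longer gene on the same strand that is not a row of the table.

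NQO1 (chr16:69706996-69726668, minus strand) is the quinone reductase most used as a readout of NRF2. It was at 477, 343 and 440.5 CPM in control and at 366, 369 and 273 CPM in HCQ-evolved OVCAR3, where the groups overlapped. CCL218 pools were at 390.4, 312 and 346 CPM in control and at 291.5, 269.7 and 284 CPM in HCQ-evolved pools, all below the control pools. The log2 fold change was -0.31 in both lines (SE 0.20 and adjusted p = 0.509 in OVCAR3, SE 0.13 and adjusted p = 0.184 in CCL218, edgeR), and it stayed below 0 with each pool left out and in each other setting tried.

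HMOX1 (chr22:35380361-35394214, plus strand) encodes heme oxygenase 1, which is under the repressor BACH1 as well as NRF2. In OVCAR3 it was at 19.4, 11.6 and 16.2 CPM in control and at 19.7, 19.1 and 21.7 CPM in HCQ-evolved pools, where the control L pool lay within the HCQ-evolved range. CCL218 pools were at 16.1, 9.27 and 9.22 CPM in control and at 21.2, 13.8 and 17.6 CPM in HCQ-evolved pools. Only the control L pool overlapped with the HCQ-evolved pools, and in each of the 3 plate positions the HCQ-evolved pool was higher. The log2 fold change was 0.38 (SE 0.22, adjusted p = 0.452, edgeR) in OVCAR3 and 0.60 (SE 0.27, adjusted p = 0.216) in CCL218. CCL218 pools of the same plate position correlated at 0.506, 0.233 and 0.195 (L, M, R), but control M correlated better with HCQ-evolved R (0.433). With a replicate block for position HMOX1 passed in CCL218 (log2 fold change 0.63, SE 0.16, adjusted p = 0.0345, edgeR), as did 14.2% of all genes tested. It also passed without the control L pool (0.91, adjusted p = 0.00404), as did 25.2% of all genes tested. With the trend with length and GC content removed it passed (0.77, adjusted p = 0.0166), as did 18.8% of all genes tested.

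**Figure D3:**
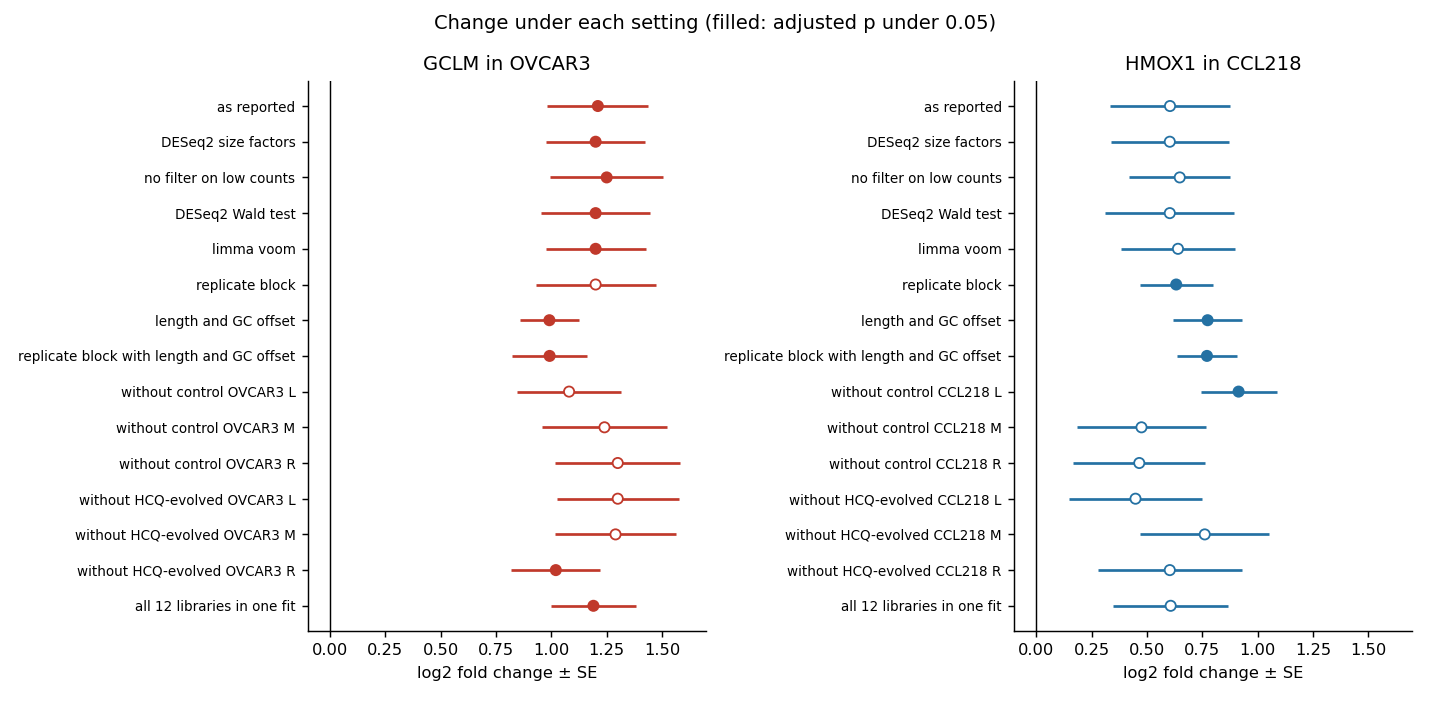
Log2 fold change ± SE of GCLM in OVCAR3 (left) and HMOX1 in CCL218 (right) under each setting, with filled points for an adjusted p under 0.05. GCLM stays between 0.99 and 1.30 while its call comes and goes, and HMOX1 passes with the block, with the trend removed and without the control L pool.

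OSGIN1 (chr16:83931311-83966332, plus strand), an oxidative stress induced growth inhibitor, was the target with the fewest counts. It was at 11.2, 7.41 and 8.51 CPM in control and at 9.75, 11.2 and 5.61 CPM in HCQ-evolved OVCAR3. CCL218 pools were at 7.91, 5.68 and 5.68 CPM in control and at 8.58, 6.27 and 6.75 CPM in HCQ-evolved pools. The groups overlapped in both lines, and the log2 fold change was -0.012 (SE 0.29, adjusted p = 0.991, edgeR) in OVCAR3 and 0.16 (SE 0.21, adjusted p = 0.647) in CCL218. OSGIN1 shares 457 exon bases with MLYCD on the same strand, so its level is uncertain.

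Levels were compared between genes as CPM per kilobase of the canonical transcript. The order may depend on this choice, and no other length was tried. NFE2L2 has 2446 bases in that transcript and 14975 over all its exons, some shared with HNRNPA3, while SRXN1 has 2528 by either measure. NQO1 was highest in all 4 groups, at 167 ± 27.4 CPM per kilobase in control OVCAR3 and 112 ± 4.39 in HCQ-evolved CCL218 (SD, n = 3). TXNRD1 and NFE2L2 came next, at 43.5 ± 8.08 and 44.1 ± 12.1 CPM per kilobase in control OVCAR3, and their pools overlapped in every group but HCQ-evolved CCL218, where TXNRD1 was higher (66.4 ± 3.71 against 54.4 ± 0.369). KEAP1 ranked next, at place 4 in each group, at 26.5 to 35.7 CPM per kilobase by group mean. CUL3, SRXN1 and GCLC followed between 12.4 and 20.2, and in every group at least one neighbouring pair among CUL3, SRXN1, GCLC and HMOX1 overlapped. GCLM and OSGIN1 were the lowest in all 4 groups. They overlapped in control OVCAR3 (3.77 ± 0.526 and 4.70 ± 1.003), and GCLM was above OSGIN1 in HCQ-evolved OVCAR3 (8.61 ± 1.72 against 4.61 ± 1.51) and in both CCL218 groups.

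The change in CCL218 was set against the change in OVCAR3 by an interaction term, with all 12 libraries in the fit (edgeR), where 0.872% of 12613 genes passed. None of the 10 genes passed, by edgeR or by DESeq2, and 1 had an unadjusted p under 0.05. GCLM had that p, with a log2 change smaller by 0.81 in CCL218 than in OVCAR3 (interaction -0.81, SE 0.27, 95% confidence interval -1.40 to -0.21, adjusted p = 0.279). GCLM passed only with the trend with length and GC content removed (-0.74, adjusted p = 0.0391), where 415 of 12613 genes passed. For SRXN1 the interaction was -0.37 (-0.81 to 0.08, adjusted p = 0.712). For NQO1, GCLC and NFE2L2 it was 0.01, 0.01 and 0.03 with 95% confidence intervals of -0.50 to 0.53, -0.76 to 0.77 and -0.76 to 0.81.

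Without HCQ, no gene of the set was called different between the lines as labelled. Control pools of both labels carried 9 of the 11 intestinal markers at 1 CPM or more, as given above. Whether the labels stand for different tissues here was not tested, so likeness between them is not shown to be likeness between tissues. Control CCL218 was compared with control OVCAR3 in the same fit, where 3.42% of 12613 genes passed, and 0 of the 10 passed by edgeR or DESeq2, with 1 (GCLM) at an unadjusted p under 0.05. GCLM was 0.46 higher on the log2 scale in control CCL218 (SE 0.19, adjusted p = 0.294, edgeR), with the M and R pools above every control OVCAR3 pool. OSGIN1 was lower by a log2 value of -0.49 (SE 0.27, adjusted p = 0.433). Both passed with the trend with length and GC content removed, at adjusted p = 0.0287 and 0.0289. In that setting 18.9% of 12613 genes passed.

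Of 117 further genes of the pathway in 9 lists, 104 were tested in OVCAR3 and 105 in CCL218. In OVCAR3 0 rose and 1 fell, and in CCL218 2 rose and 4 fell, which is 0.962% and 5.71% of the list genes tested, beside 1.86% and 6.46% of all genes tested. The 1 that fell in OVCAR3, AKR1C2, met the filter on low counts only through its control pools. At an unadjusted p under 0.05 there were 16 and 23 genes by edgeR, and DESeq2 called 9 and 12 and limma voom 3 and 6. The median log2 fold change of the list genes was 0.05 in OVCAR3 and -0.11 in CCL218, beside 0.016 and -0.017 over all genes tested.

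**Figure D4:**
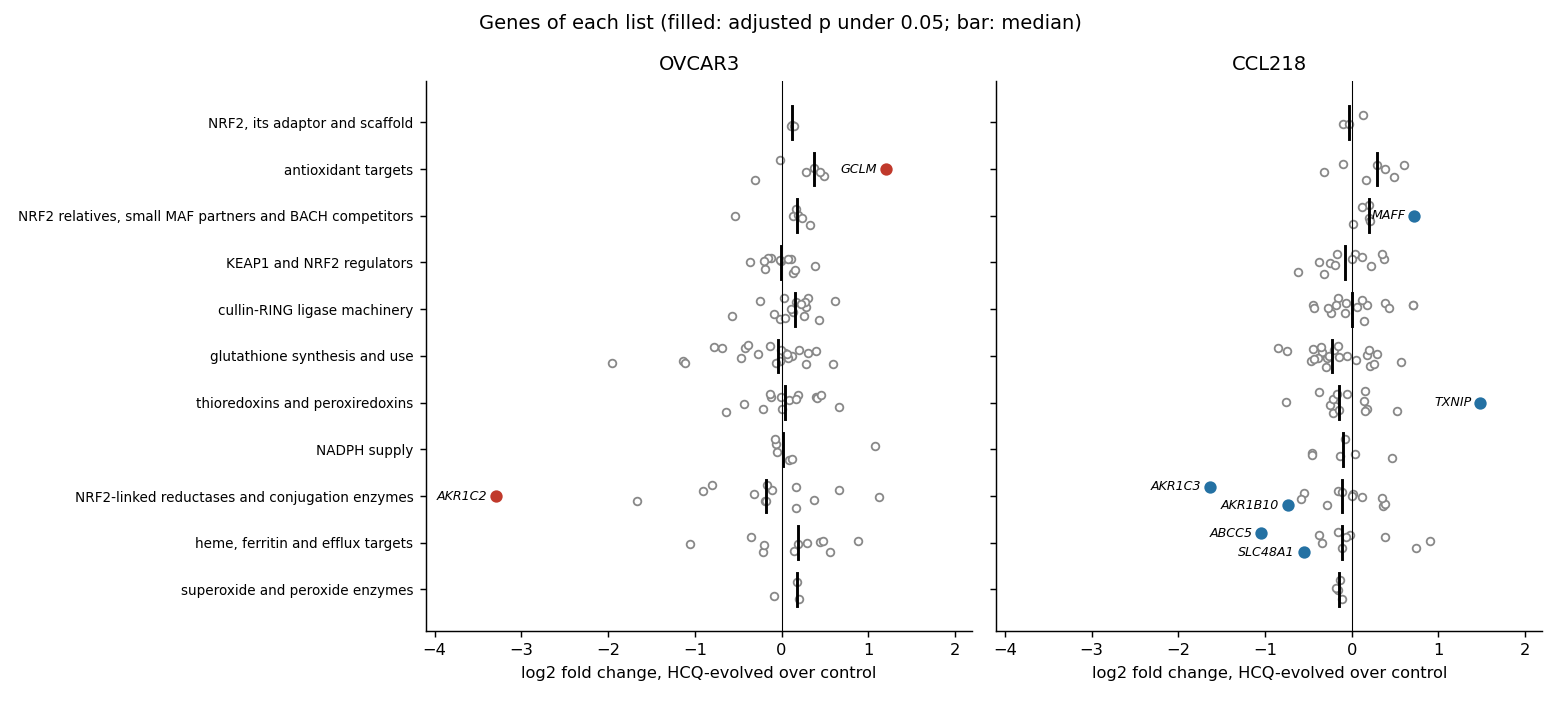
Log2 fold change of HCQ-evolved over control pools for the tested genes of each list in OVCAR3 (left) and CCL218 (right), with a bar for the median and filled, named points for an adjusted p under 0.05. Filled points are GCLM and AKR1C2 in OVCAR3 and MAFF, TXNIP, AKR1C3, AKR1B10, ABCC5 and SLC48A1 in CCL218.

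Of 8 relatives and partners of NRF2, 6 were tested, and MAFF was the one that passed by edgeR. DESeq2 called 1 gene of this list in each line, and limma voom 0 in OVCAR3 and 1 in CCL218. MAFF is a small MAF protein that pairs with NRF2 on antioxidant response elements and is itself stress-inducible. In CCL218 it was at 58.7, 46.5 and 47.8 CPM in control and at 93.7, 84.1 and 75.5 CPM in HCQ-evolved pools, all higher (log2 fold change 0.72, SE 0.15, adjusted p = 0.0352, edgeR). In OVCAR3 it was at 96.9, 84.1 and 86.7 CPM in control and at 62.0, 64.1 and 56.3 CPM in HCQ-evolved pools, all lower (-0.54, SE 0.16, adjusted p = 0.150). The call in CCL218 was lost without any one pool other than the control L pool (adjusted p up to 0.172). The interaction passed (1.28, SE 0.20, adjusted p = 0.0131) but not with the replicate block or without the control R, HCQ-evolved L or HCQ-evolved M pool of CCL218 (adjusted p up to 0.0905), while control CCL218 was below control OVCAR3 (-0.81, adjusted p = 0.00943).

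Among 12 regulators of KEAP1 and NRF2, 0 passed in either line, and the smallest p was that of SYVN1, the endoplasmic reticulum ligase HRD1, which targets NRF2. SYVN1 was at 109 ± 13.7 CPM in control and 83.6 ± 2.94 CPM in HCQ-evolved OVCAR3 (log2 fold change -0.36, adjusted p = 0.340, edgeR), and at 98.9 ± 24.4 and 64.3 ± 2.21 CPM in CCL218 (-0.62, adjusted p = 0.0954). Its HCQ-evolved pools lay below the control pools in both lines. Of these 12 regulators, 0 in OVCAR3 and 2 in CCL218 had an unadjusted p under 0.05, and DESeq2 called 0 and 1 and limma voom 0 in each. Of 17 genes of the cullin-RING ligase machinery, 16 were tested and 0 passed (edgeR), with 0 in OVCAR3 and 1 in CCL218 at an unadjusted p under 0.05 and 0 called by DESeq2 or limma voom. The smallest p was that of CAND1, the exchange factor of cullins, in OVCAR3 (0.62, SE 0.31, adjusted p = 0.384) and of CUL7 in CCL218 (0.43, SE 0.16, adjusted p = 0.155).

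Of 24 genes of glutathione synthesis and use other than GCLC and GCLM, 22 were tested and 0 passed in either line by edgeR. At an unadjusted p under 0.05 there were 5 in OVCAR3 and 3 in CCL218, while DESeq2 called 3 in each and limma voom 1 and 0. CHAC1, which degrades glutathione, was at 62.7, 36.7 and 29.4 CPM in control and at 8.80, 7.81 and 15.8 CPM in HCQ-evolved OVCAR3, with no overlap and an adjusted p just over the threshold (log2 fold change -1.96, SE 0.38, adjusted p = 0.0517, edgeR). GPX2, the gastrointestinal glutathione peroxidase, had the smallest p in CCL218, at 475 ± 138 CPM in control and 265 ± 26.0 CPM in HCQ-evolved pools (-0.85, SE 0.21, adjusted p = 0.0638). The median of this list was -0.04 in OVCAR3 and -0.23 in CCL218.

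Of 15 thioredoxins, peroxiredoxins and their partners, TXNIP passed in CCL218 by edgeR. DESeq2 and limma voom each called 0 of this list in OVCAR3 and 1 in CCL218. TXNIP binds and inhibits thioredoxin and is known to respond to glucose. It was at 295, 424 and 408 CPM in control and at 1080, 1140 and 939 CPM in HCQ-evolved CCL218 (log2 fold change 1.48, SE 0.18, adjusted p = 0.00596, edgeR), and at 278, 441 and 434 CPM against 553, 631 and 630 CPM in OVCAR3 (0.67, SE 0.23, adjusted p = 0.212). The HCQ-evolved pools lay above the control pools in both lines, and the call in CCL218 was lost only without the HCQ-evolved M pool (adjusted p = 0.0528). In the list of 6 enzymes of NADPH supply 0 passed by edgeR, with 1 in OVCAR3 and 3 in CCL218 at an unadjusted p under 0.05, and DESeq2 and limma voom each called 1 in OVCAR3 and 0 in CCL218. ME1, the cytosolic malic enzyme, was at 13.7, 15.6 and 20.8 CPM in control and at 35.2, 31.9 and 37.6 CPM in HCQ-evolved OVCAR3 (1.08, SE 0.22, adjusted p = 0.0583), and TALDO1, of the pentose phosphate pathway, had the smallest p in CCL218 (-0.46, SE 0.16, adjusted p = 0.141).

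The reductases and conjugation enzymes held the largest falls. AKR1C2, an aldo-keto reductase, was at 5.36, 2.07 and 6.07 CPM in control and at 0.489, 0.540 and 0.335 CPM in HCQ-evolved OVCAR3 (log2 fold change -3.29, SE 0.46, adjusted p = 0.0218, edgeR). It met the filter on low counts only through the control pools, where it was high. Its fall is thus partly a product of the filter, and the size of the fall rests on values under 1 CPM. AKR1C3 was at 56.5, 30.8 and 36.8 CPM in control and at 13.0, 11.2 and 15.8 CPM in HCQ-evolved CCL218 (-1.64, SE 0.26, adjusted p = 0.0155). AKR1C genes are similar copies that may share reads, which was not measured, so their levels are uncertain. AKR1B10 was at 54.9 ± 7.22 CPM in control and 33.0 ± 2.64 CPM in HCQ-evolved CCL218 (-0.74, SE 0.15, adjusted p = 0.0315). With a pool left out, the call of AKR1C2 held without the HCQ-evolved R pool only (adjusted p up to 0.0766, and not tested without a control pool), and those of AKR1C3 and AKR1B10 held without the control L or M pool only (adjusted p up to 0.109 and 0.202). AKR1B10 was also lost with all 12 libraries in one fit (adjusted p = 0.282). Of 18 genes of this list, 14 were tested in OVCAR3, where 1 fell, and 13 in CCL218, where 2 fell. DESeq2 called 3 in OVCAR3 and 2 in CCL218, and limma voom 1 and 2.

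Of 13 heme, ferritin and efflux genes, 11 were tested, and 2 fell in CCL218 by edgeR. DESeq2 called 1 in OVCAR3 and 4 in CCL218, and limma voom 0 and 2. ABCC5, an efflux pump, was at 9.24, 10.8 and 10.03 CPM in control and at 4.02, 5.45 and 5.17 CPM in HCQ-evolved CCL218 (log2 fold change -1.04, SE 0.17, adjusted p = 0.0167, edgeR), and at 6.28 ± 0.756 and 2.98 ± 0.755 CPM in OVCAR3 (-1.06, SE 0.27, adjusted p = 0.101). SLC48A1, a heme transporter, was at 31.9 ± 2.76 CPM in control and 21.8 ± 0.788 CPM in HCQ-evolved CCL218 (-0.55, SE 0.13, adjusted p = 0.0462). Without any one pool other than the control L pool, both calls were lost (adjusted p up to 0.0945 for ABCC5 and 0.235 for SLC48A1), and SLC48A1 was also lost with no filter on low counts (adjusted p = 0.084). Among 4 superoxide and peroxide enzymes 0 passed by edgeR, DESeq2 or limma voom, and 0 had an unadjusted p under 0.05, while catalase (CAT) had the smallest p in both lines (0.17, adjusted p = 0.692, in OVCAR3 and -0.14, adjusted p = 0.523, in CCL218, edgeR).

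The 5 genes whose pattern over the 12 libraries was most like that of GCLM, out of 12612 ranked, were CCNF, ARHGAP19, RAD54B, KIF4A and SGO2. Likeness was the root mean square difference of log2 CPM after each gene was centred on its mean, and it was 0.124 to 0.162. The trend with transcript length and GC content was not removed from these values. GCLM has a transcript of 4883 bases with 37.3% GC, and the part of that trend in the order of genes was not tested. Among the other 9 genes of the set, GCLC was the nearest to GCLM (0.295, rank 293) and TXNRD1 the next (0.311, rank 388), while NQO1 was the farthest (0.684, rank 8189).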

How the data were processed

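The authors aligned reads to hg38 with STAR, removed duplicates with RmDup and deposited counts of reads per gene from featureCounts for 12 libraries. The annotation, versions and strand setting of the counting are not given in the sources used here. Columns without a sample numbered 0.

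The 10 genes and the 9 pathway and 4 marker lists were chosen with earlier results of these data known. Library sizes were scaled by TMM, and genes reaching 1 CPM in 3 or more libraries entered edgeR 4.0.16 in R 4.3.3 (robust quasi-likelihood F test, legacy mode, no block), each line alone. Interaction and baseline came from one fit of 12 libraries. Levels are CPM on one TMM scale. Named list genes are those that passed in a line, otherwise the smallest p in each line. DESeq2 1.42.0 and limma 3.58.1 (voom) were alternatives. The pipeline was tested on simulated data.

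Plate position could pair pools. After group means were removed, same-position pools correlated across genes at 0.506, 0.233 and 0.195 in CCL218 (positions L, M, R; each above 0.1) and at 0.401, -0.665 and -0.478 in OVCAR3, so a block for position was taken to pair pools in CCL218 only. In CCL218 the control M pool nevertheless correlated better with the HCQ-evolved R pool (0.433) than with its own position. Both of those pools had much the same rank correlation with transcript length (0.46 and 0.459). Pairing by position was not tested apart from the trend with length. Values are from the fit without the block unless it is named. Transcript length and GC content came from GENCODE 44 on hg38, which matched 25763 of 28278 symbols (91.1%), and their trend was removed by a spline per library.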

Additional observations from a re-analysis of the deposited data

Results flagged for a closer look

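MAFF rose in CCL218 (log2 fold change 0.72, adjusted p = 0.0352, edgeR) and had a value of -0.54 in OVCAR3, which did not pass (adjusted p = 0.150). The change in CCL218 minus that in OVCAR3 was 1.28 on the log2 scale (SE 0.20, adjusted p = 0.0131, edgeR interaction over 12 libraries), higher in 3 of 3 HCQ-evolved CCL218 pools and lower in 3 of 3 HCQ-evolved OVCAR3 pools than in any control pool of the line. Over 17 alternative settings this difference ranged from 1.20 to 1.40 and passed in 13. It was lost with the replicate block and without the control R, HCQ-evolved L or HCQ-evolved M pool of CCL218 (adjusted p up to 0.0905).

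GPX3, which encodes a secreted glutathione peroxidase, had all HCQ-evolved pools below the control pools in OVCAR3 (log2 fold change -1.14, adjusted p = 0.146, edgeR) and above them in CCL218 (0.57, adjusted p = 0.119). The test of the difference gave 1.73 (SE 0.42, adjusted p = 0.0945, edgeR), which did not pass, and it passed in 3 of 17 alternative settings (DESeq2, the length and GC offset, and without the HCQ-evolved R pool of OVCAR3). The control groups already differed, with control CCL218 lower by a log2 value of -2.02 (adjusted p = 0.00387).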

How the results depend on the processing

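Each gene's fold change was recomputed under 8 other settings and with each pool left out. In OVCAR3, 74 of 80 values under other settings kept their direction and their side of the threshold, and in CCL218 77 of 80. With a pool left out these were 52 of 60 and 57 of 60. The number of the 10 genes called in OVCAR3 (1, GCLM) was 0 with the replicate block and 0 to 1 with a pool left out. In CCL218 (0 called) it was 1 (HMOX1) with the replicate block, 1 with the length and GC offset, 1 with both and 0 to 1 with a pool left out. Of all 12241 genes tested there, 1744 passed with the block, 2306 with the offset and 2102 with both. With the length and GC offset, 1 gene (GCLM) passed for the interaction and 2 (GCLM and OSGIN1) between control lines. Of all 12613 genes, 415 and 2384 passed in these. The replicate block changed no other call of the 10 genes. Same-position OVCAR3 pools correlated with no common sign (0.401, -0.665 and -0.478 for L, M and R), so the block there rests on the labels alone. With it the calls over all genes fell from 227 to 81 (the L pools alone correlated best with their own position).

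The log2 values that changed sign were small. CUL3 in OVCAR3 was -0.0735 with the offset and -0.0668 with offset and replicate block. OSGIN1 in OVCAR3 was 0.028 with no filter, 0.118 with the offset and 0.111 with offset and block. Without the filter the interaction was -0.00584 for NQO1 and -0.0065 for GCLC, and SRXN1 between control lines was 0.0109 (0.0224 with the offset). With a pool left out, changes ranged in OVCAR3 from -0.105 to 0.265 for NFE2L2 and from -0.206 to 0.223 for OSGIN1. In CCL218 they ranged from -0.117 to 0.300 for NFE2L2 and from -0.0737 to 0.0292 for CUL3. The interaction then ranged from -0.215 to 0.240 for NFE2L2, from -0.116 to 0.142 for NQO1, from -0.217 to 0.201 for GCLC, from -0.318 to 0.00154 for TXNRD1 and from -0.0484 to 0.399 for OSGIN1. Between control lines NFE2L2 ranged from -0.0484 to 0.407 and SRXN1 from -0.0775 to 0.102. The cause was not tested.

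Calls over all genes numbered 227 in OVCAR3 and 791 in CCL218, and 81 to 1165 and 654 to 2306 under other settings. With a pool left out they numbered 3 to 557, lowest without the control L pool and highest without the HCQ-evolved R pool, and 102 to 3047, lowest without the HCQ-evolved M pool and highest without the control L pool. For the interaction and between control lines, 110 and 431 became 35 to 463 and 217 to 2384 under other settings.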
